A study of Mus musculus with 4 samples.

Results

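The genes described here are 10 chaperones, quality-control factors and regulators of the endoplasmic reticulum (ER) and its unfolded protein response: *Hspa5*, *Hsp90b1*, *Xbp1*, *Dnajb9*, *Herpud1*, *Sdf2l1*, *Pdia4*, *Calr*, *Edem1* and *Creld2*. They were taken by symbol from the deposited gene table, and all 10 were among the 18598 listed genes. All 10 also passed the filter on low values and belonged to the 14858 genes tested. RNA was sequenced from LSK cells (lineage-negative, Sca-1-positive, c-Kit-positive bone marrow cells, the fraction that holds the hematopoietic stem cells and early progenitors), sorted from C57BL/6 mice about 3 months old at 10 days after cre induction. The 2 control libraries came from *Bptf* f/f mice without cre, and the 2 *Bptf* cKO libraries (genotype label *Bptf* -/-) came from *Bptf* f/f mice with *Mx1*-cre. Both groups received pIpC, a double-stranded RNA mimic, and each library was made from the cells of 5 mice pooled together. *Mx1*-cre is driven by an interferon-responsive promoter, and because the controls carried no cre, an effect of cre itself cannot be told apart from the loss of *Bptf*, which encodes the largest subunit of the chromatin-remodeling complex NURF. In bulk RNA of this kind, a change in the mixture of cells and a change in the RNA of each cell cannot be told apart.

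The ER folds and glycosylates secreted and membrane proteins, and misfolded proteins there set off the unfolded protein response. IRE1 (gene *Ern1*) splices the mRNA of *Xbp1* into the form that encodes an active transcription factor, ATF6 is cut in the Golgi to release a transcription factor, and PERK (gene *Eif2ak3*) phosphorylates eIF2 alpha, which lowers general translation and raises translation of ATF4. The first pair of branches induces chaperones and the machinery of ER-associated degradation (ERAD), in which misfolded proteins are returned to the cytosol for the proteasome, while ATF4 induces genes of amino acid supply and of stress signaling and is also induced through other eIF2 alpha kinases. In hematopoietic stem cells, where protein synthesis is kept low, this response is known as a control of survival under protein-folding stress.

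The promoters of some of these genes hold letters of the elements known from that response, and they are shown before the expression values. Sequences came from RefSeq, build GRCm38.p6, as windows from 250 bases before to 50 bases after the transcription start, and all 10 genes matched. An ER stress element was searched as CCAAT, any 9 bases, then CCACG, on both strands. CCAAT is the letters bound by NF-Y and CCACG those bound by ATF6. A second form, ER stress element II, was searched as ATTGG, any 1 base, then CCACG. The shared CCACG letters mean that these patterns could overlap, and in the 10 promoters no such overlap was found. Capitals mark the letters of a match and all sequences run 5' to 3' along the gene. The windows of *Hspa5* (chr2:34771840-34772139, plus strand) and *Herpud1* (chr8:94386179-94386478, plus strand) are shown whole at 300 bases because *Herpud1* differed most between the genotypes and *Hspa5* most between the controls, and *Hsp90b1* (chr10:86705518-86705671, minus strand), *Calr* (chr8:84847060-84847108, minus strand) and *Creld2* (chr15:88819505-88819553, plus strand) are shown around their matches.
Hspa5: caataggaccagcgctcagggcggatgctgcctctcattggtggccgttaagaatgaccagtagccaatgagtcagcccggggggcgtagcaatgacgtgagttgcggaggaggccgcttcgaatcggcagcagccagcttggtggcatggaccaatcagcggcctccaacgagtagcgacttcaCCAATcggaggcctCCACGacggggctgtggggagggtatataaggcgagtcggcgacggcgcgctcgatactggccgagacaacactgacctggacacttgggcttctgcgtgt
Herpud1: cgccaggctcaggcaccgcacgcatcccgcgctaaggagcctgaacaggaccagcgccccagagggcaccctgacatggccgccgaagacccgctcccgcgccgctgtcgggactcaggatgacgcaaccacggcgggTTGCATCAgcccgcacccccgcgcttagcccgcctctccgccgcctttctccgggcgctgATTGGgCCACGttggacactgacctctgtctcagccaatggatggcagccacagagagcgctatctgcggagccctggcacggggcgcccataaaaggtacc
Hsp90b1: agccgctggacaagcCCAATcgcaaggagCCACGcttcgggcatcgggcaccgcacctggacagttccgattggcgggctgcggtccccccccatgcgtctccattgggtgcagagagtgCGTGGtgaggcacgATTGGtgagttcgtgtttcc
Calr: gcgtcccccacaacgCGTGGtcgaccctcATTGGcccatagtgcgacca
Creld2: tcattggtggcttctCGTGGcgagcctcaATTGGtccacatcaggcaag

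The ER stress element was found in 4 of the 10 promoters, those of *Hspa5*, *Hsp90b1*, *Calr* and *Creld2*, and in 37 of all 27025 genes with a promoter in the RefSeq table (0.137%). In *Hspa5* it lay at -65 to -47 from the start. *Hsp90b1* had a match at -212 to -194 and one in the reverse direction at -107 to -89, which in the printed strand reads CGTGG before ATTGG. The matches of *Calr* at -162 to -144 and of *Creld2* at -126 to -108 were also in the reverse direction. *Herpud1* was the gene with ER stress element II, at -52 to -42, a pattern held by 12 of all genes (0.0444%). *Herpud1* also had TTGCATCA, letters of the kind bound by ATF4 with a C/EBP partner, at -112 to -105, and 1.03% of all genes had that sequence on either strand. TGACGTGG, searched as the type of site bound by XBP1 and ATF6, whose reverse strand contains CCACG, was in none of the 10 windows and in 0.714% of genes. *Xbp1*, *Dnajb9*, *Sdf2l1*, *Pdia4* and *Edem1* had no exact match to any of the 4 patterns in this window, which says nothing of related letters or of sites farther away. The patterns were chosen as elements already known from this response. Their shares among its genes are therefore a description, and no enrichment was tested. A match is a sequence feature and not a measured binding site.

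**Figure D1:**
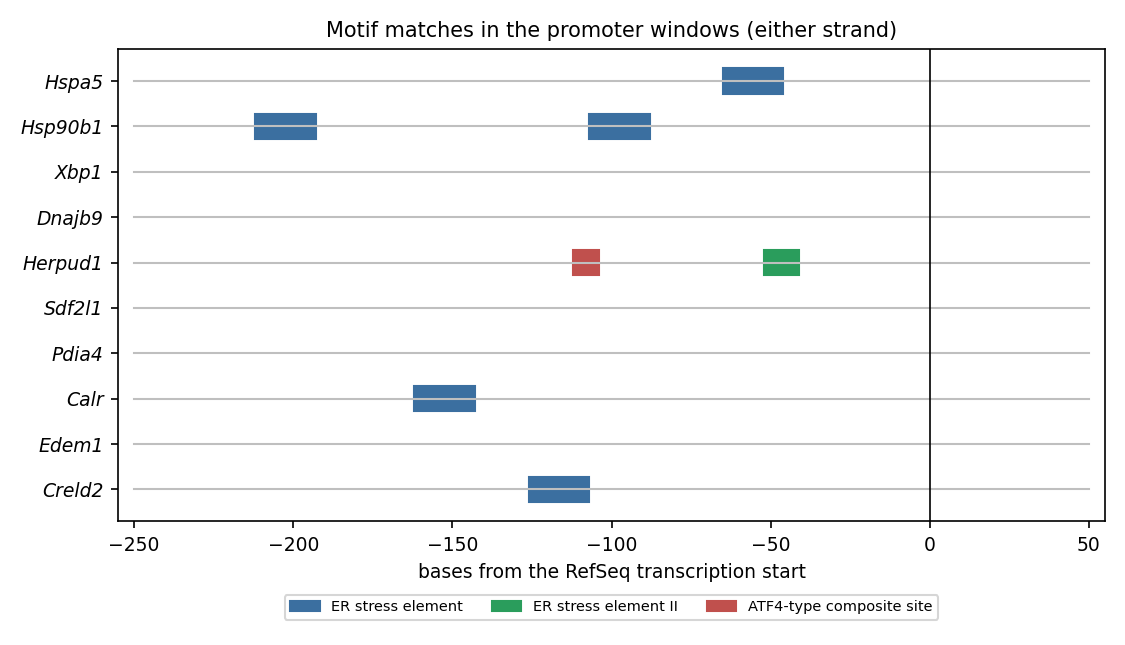
Positions of motif matches on either strand in the promoter windows of the 10 genes, in bases from the RefSeq transcription start (vertical line). Blue boxes, ER stress element; green, ER stress element II; red, ATF4-type composite site. *Hsp90b1* has 2 blue boxes, *Herpud1* has the green and the red box, and 5 genes have none.

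The controls had 24875746 (replicate 1) and 14091054 (replicate 2) reads on listed genes and the *Bptf* cKO libraries 30134742 and 14104526, and no member had fewer than 468 reads in any library. *Bptf* itself was at 5520 and 5850 normalized counts in the controls and at 3398 and 3320 in *Bptf* cKO, lower by a log2 fold change of -0.76 with an SE of 0.090 and an adjusted p of 0.0439 by limma, a difference that kept its sign but missed the threshold with any 1 library left out (limma adjusted p from 0.0647 without control replicate 1 through 0.0987 without control replicate 2 and 0.227 without *Bptf* cKO replicate 1 to 0.316 without *Bptf* cKO replicate 2). The deletion removes 1 exon, so a gene-level count keeps reads of the remaining transcript. The LSK markers were present, with *Kit* between 13634 and 17051 and *Ly6a* (Sca-1) between 726 and 1743 in the 4 libraries. Both replicate 2 libraries stood apart from both replicate 1 libraries: *Xist* was at 15675 and 11843 in replicates 2 against 0.775 and 3.25 in replicates 1, *Pou5f1* at 582 and 738 against 0 and 0, and the immunoglobulin gene *Igha* at 448 and 1452 against 0 and 0. Each genotype had 1 library of either kind. Their part in the results was not tested, and differences within each replicate number are given beside the values.

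The 10 genes were mostly somewhat higher in *Bptf* cKO LSK cells, by amounts that limma did not separate from the spread between libraries. The fitted log2 fold change was above 0 for 8 of the 10 and below 0 for *Hspa5* and *Dnajb9*, with a median of 0.21, against a median of 0.0010 and 50.2% above 0 over all tested genes. None of the 10 passed a limma adjusted p of 0.05 in either direction, where 0.370% of all tested genes were called higher and 0.370% lower, and 2 of them, *Herpud1* and *Edem1*, had an unadjusted p under 0.05, as had 15.7% of all genes. DESeq2, run on reads recovered from the normalized counts, called 1 of the 10, *Herpud1*, higher (2.14% of all genes), and edgeR called none. In 5 of the 10 both *Bptf* cKO libraries lay above both controls (23.2% of all tested genes) and in 1, *Dnajb9*, both lay below (23.8%). With 2 libraries against 2, the smallest p that an exact permutation test of 1 gene allows is 0.333. Markers of another cell type differed between the genotypes: the sum of 10 erythroid genes was 12878 and 14970 normalized counts in the controls and 6198 and 7098 in *Bptf* cKO. All 9 of these that were tested had a log2 fold change below 0, with a median of -1.96. By limma 1 of them (*Epor*) fell, and DESeq2 called 5 lower, against 490 of all 14858 tested genes. In 8 of the 9 both *Bptf* cKO libraries lay below both controls (23.8% of all tested genes). Granulocyte and B cell markers differed between the controls. The sum of 11 granulocyte genes was 83642 and 13799 in the controls and 60426 and 50035 in *Bptf* cKO. The sum of 10 B cell genes was 10206 and 2556 in the controls and 5788 and 3474 in *Bptf* cKO. Limma called 0 genes of either list. The part of these 3 marker lists in the values of the ER genes was not tested. The median log2 fold change over the 10 ER genes was 0.25 between the replicate 1 libraries alone and 0.29 between the replicate 2 libraries alone.

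**Figure D2:**
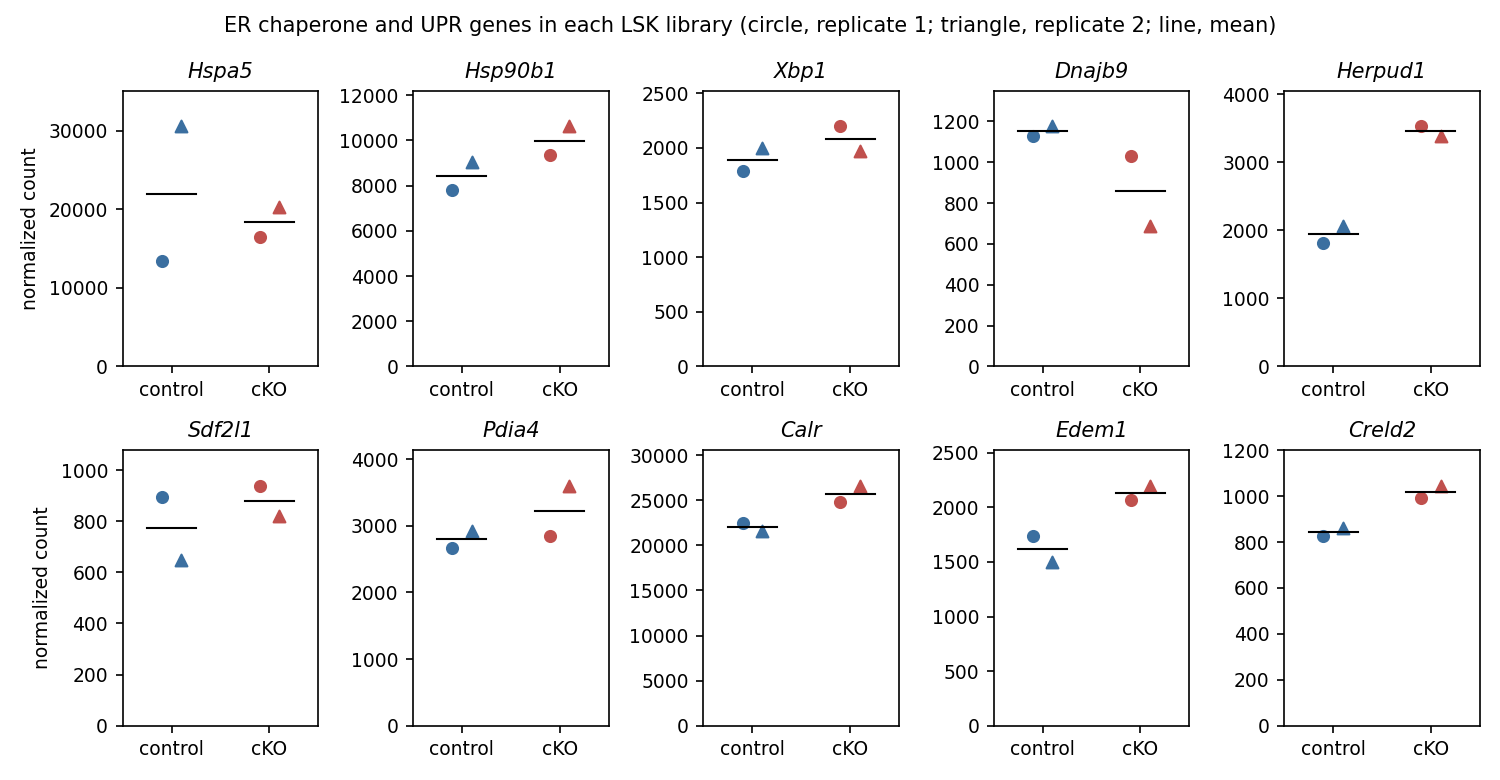
Normalized count of each of the 10 genes in the 4 LSK libraries, each panel with its own axis from 0; circles are replicate 1, triangles replicate 2 and lines the mean of each genotype. *Herpud1*, *Edem1*, *Creld2*, *Hsp90b1* and *Calr* have both *Bptf* cKO points above both control points, *Dnajb9* has them below, and the controls of *Hspa5* lie farthest apart, at 13472 and 30574.

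The largest difference among the 10 was in an ERAD gene. *Herpud1* (chr8:94386438-94395377, plus strand; gene coordinates here and below are those of GENCODE on GRCm38) encodes a membrane protein of the ER that helps to assemble the complex around the ubiquitin ligase HRD1. It had 1816 and 2066 normalized counts in the controls and 3526 and 3388 in *Bptf* cKO. Both *Bptf* cKO libraries were far above both controls, and the libraries of each genotype lay close together. The means were 1941 ± 177 and 3457 ± 97.7 (SD, n = 2), and the fold change was 1.78 with a 95% interval of 1.48 to 2.15. The log2 fold change of 0.83 (SE 0.11) had an unadjusted limma p of 4.26e-04 in the model across all genes and an adjusted p of 0.0524, just past the threshold of 0.05. With DESeq2 the adjusted p was 9.71e-07 and with edgeR 0.0591, and over all alternatives it lay between 9.71e-07 and 0.315, the highest without *Bptf* cKO replicate 2. Within replicate 1 the log2 difference was 0.96 and within replicate 2 it was 0.71. An antisense gene, *Gm15890*, overlaps the start of *Herpud1*. It was listed at 5.54 to 10.1 normalized counts, and since the strand setting of the counting was not given, reads of the pair may not be separated.

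*Edem1* (chr6:108828641-108859356, plus strand) encodes an ER lectin that takes misfolded glycoproteins out of the folding cycle and passes them to ERAD. It was at 1734 and 1497 normalized counts in the controls and at 2064 and 2198 in *Bptf* cKO. The lower *Bptf* cKO library was above the higher control. The fold was 1.32 (95% interval 1.08 to 1.62), and the log2 fold change of 0.40 (SE 0.12) had an unadjusted limma p of 0.0166 and an adjusted p of 0.209. DESeq2 gave an adjusted p of 0.135. The log2 difference was 0.25 in replicate 1 and 0.55 in replicate 2.

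The chaperones of the ER lumen differed less. *Calr* (chr8:84841850-84846934, minus strand) encodes calreticulin, a calcium-binding lectin chaperone for glycoproteins. Its normalized counts were 22468 and 21632 in the controls and 24799.7 and 26617 in *Bptf* cKO. Both *Bptf* cKO values were above both controls, with a fold of 1.17 (95% interval 0.982 to 1.38) and a limma adjusted p of 0.366.

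*Hsp90b1* (chr10:86690209-86705509, minus strand) encodes GRP94, the HSP90 of the ER, which folds integrins and Toll-like receptors. It was at 7825 and 9067 normalized counts in the controls and at 9358 and 10620.1 in *Bptf* cKO. The groups did not overlap, although replicate 2 was above replicate 1 in both genotypes. The fold was 1.18 (95% interval 0.957 to 1.46) with a limma adjusted p of 0.422, and the log2 differences within replicates were 0.26 and 0.23. A pseudogene on the opposite strand, *1810014B01Rik*, overlaps its 3' part and had 227 and 209 normalized counts in the controls and 322 and 315 in *Bptf* cKO (limma adjusted p = 0.228), so reads of the pair may not be separated here either. A processed transcript on the same strand, *Gm15344*, also lies within *Hsp90b1*. It was at 43.4 and 103 normalized counts in the controls and at 55.2 and 70.5 in *Bptf* cKO. Its reads may not be separated under any strand setting.

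*Creld2* (chr15:88819646-88826683, plus strand) encodes a secreted and ER-resident protein that is known as a marker of ER stress. Its values were 827 and 862 normalized counts in the controls and 991 and 1046 in *Bptf* cKO. The libraries of each genotype were close together and did not overlap, with log2 differences of 0.26 and 0.28 within replicates. The fold was 1.21 (95% interval 0.993 to 1.46) with a limma adjusted p of 0.333.

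*Pdia4* (chr6:47796141-47813430, minus strand), a protein disulfide isomerase also called ERp72, had 2672 and 2916 normalized counts in the controls and 2843 and 3599 in *Bptf* cKO. The lower *Bptf* cKO value lay between the controls. The log2 fold change was 0.20 (SE 0.14, limma adjusted p = 0.579). *Sdf2l1* (chr16:17130138-17132383, minus strand) encodes a partner of the ER DNAJ proteins that keeps folding intermediates from aggregating. It had the lowest mean normalized count of the 10 in control LSK cells, with 897 and 649 normalized counts in the controls and 939 and 821 in *Bptf* cKO. Its controls spanned one of the *Bptf* cKO values, and the log2 fold change of 0.20 (SE 0.19, limma adjusted p = 0.679) became -0.030 without control replicate 2.

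*Hspa5* (chr2:34771970-34777547, plus strand) encodes BiP, the HSP70 of the ER, which binds unfolded chains and holds the sensors of the response inactive. Its normalized counts were 13472 and 30574 in the controls and 16481 and 20291 in *Bptf* cKO. The controls enclosed both *Bptf* cKO values, and control replicate 2 was 2.27 times control replicate 1, whereas the *Bptf* cKO libraries differed 1.23 times. The log2 fold change was -0.15 with an SE of 0.39 and a 95% interval of -1.12 to 0.82 (limma adjusted p = 0.906), the widest interval of the 10 genes. The sign depended on control replicate 2: without it the log2 fold change was 0.44 (limma adjusted p = 0.317). Between the replicate 1 libraries *Hspa5* was higher in *Bptf* cKO by 0.29 on the log2 scale, and between the replicate 2 libraries the difference was -0.59.

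Other genes that answer to cell stress also differed between the controls. The sum of 8 immediate-early genes was 66941 and 163589 normalized counts in control replicates 1 and 2 and 22969 and 27508 in *Bptf* cKO, and *Fos* among them was at 16269 and 37418 against 4335 and 4312. These genes also differed between the genotypes: all 8 had a log2 fold change below 0, with a median of -1.68. In 7 of the 8 both *Bptf* cKO libraries lay below both controls (23.8% of all tested genes). Limma called 0 of them, and DESeq2 called 6 lower, against 490 of all 14858 tested genes. The sum of 9 cytosolic heat-shock genes was 110321 and 148714 in the controls and 119038 and 142374 in *Bptf* cKO, higher in replicate 2 of each genotype as *Hspa5* was. *Hspa1a*, an inducible cytosolic HSP70, was at 17.1 and 269 in the controls and at 1.30 and 185 in *Bptf* cKO. Plasma cells hold much ER, and the summed level of 11 listed plasma cell markers of 13 was 9275 and 15774 in the controls and 5327 and 18359 in *Bptf* cKO, with 2 of the 11 at 0 in control replicate 1 and 1 at 0 in *Bptf* cKO replicate 1. Of these markers 1 was called, *Sdc1* (CD138), which fell from 384 and 363 to 52.0 and 59.3 normalized counts (limma adjusted p = 0.0204). Among all tested genes 0.370% were called lower. The other 10 markers overlapped between the genotypes. Over the 11, the log2 fold change was above 0 for 6 and below 0 for 5, with a median of 0.0033. Sums of other marker lists were lower in control replicate 2 than in control replicate 1. They included the granulocyte and B cell sums given above and the sum of 8 monocyte markers. The monocyte sum was 2473 and 999 in the controls and 1200 and 1520 in *Bptf* cKO. The erythroid sum was higher in control replicate 2. *Calr*, *Edem1* and *Sdf2l1* were lower in control replicate 2 than in control replicate 1, at 0.963, 0.863 and 0.723 times its level. The part of these levels in the values of *Hspa5* was not tested.

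**Figure D3:**
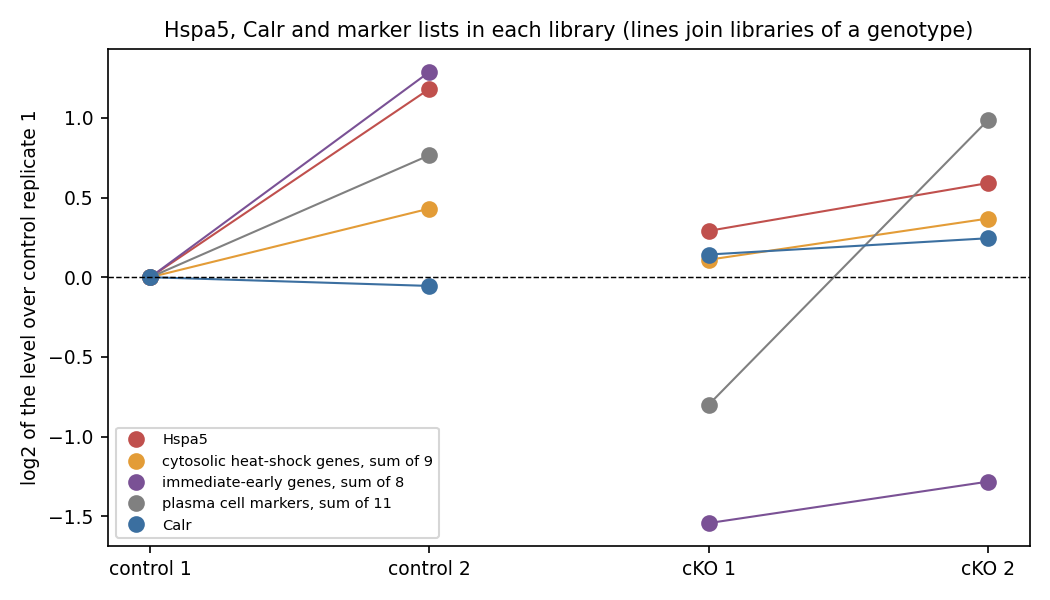
Level of *Hspa5*, *Calr* and the summed level of 3 marker lists in each library as log2 over control replicate 1; lines join the 2 libraries of a genotype. *Hspa5* and the immediate-early sum are highest in control replicate 2, the plasma cell and heat-shock sums are higher in replicate 2 of both genotypes, and *Calr* varies least of the 5 quantities.

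*Xbp1* (chr11:5520659-5525893, plus strand), the transcription factor made active by IRE1, had 1784 and 2001 normalized counts in the controls and 2196 and 1975 in *Bptf* cKO. The groups overlapped, and replicate 1 differed by 0.30 on the log2 scale while replicate 2 differed by -0.019. The log2 fold change was 0.14 (SE 0.11, 95% interval -0.15 to 0.43, limma adjusted p = 0.627). Gene-level counts do not separate the spliced from the unspliced mRNA, so they do not measure IRE1 activity.

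*Dnajb9* (chr12:44205559-44210326, minus strand), also called ERdj4, encodes a co-chaperone of BiP that serves ERAD and restrains IRE1. It was the gene of the 10 with the lowest fold. Its values were 1131 and 1175 normalized counts in the controls and 1031 and 689.9 in *Bptf* cKO. Both *Bptf* cKO libraries were below both controls, but replicate 1 only narrowly: the log2 difference was -0.13 in replicate 1 and -0.77 in replicate 2. The log2 fold change of -0.45 (SE 0.21) had a 95% interval of -0.97 to 0.074 and a limma adjusted p of 0.386, and it was -0.16 (limma adjusted p = 0.942) without *Bptf* cKO replicate 2.

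**Figure D4:**
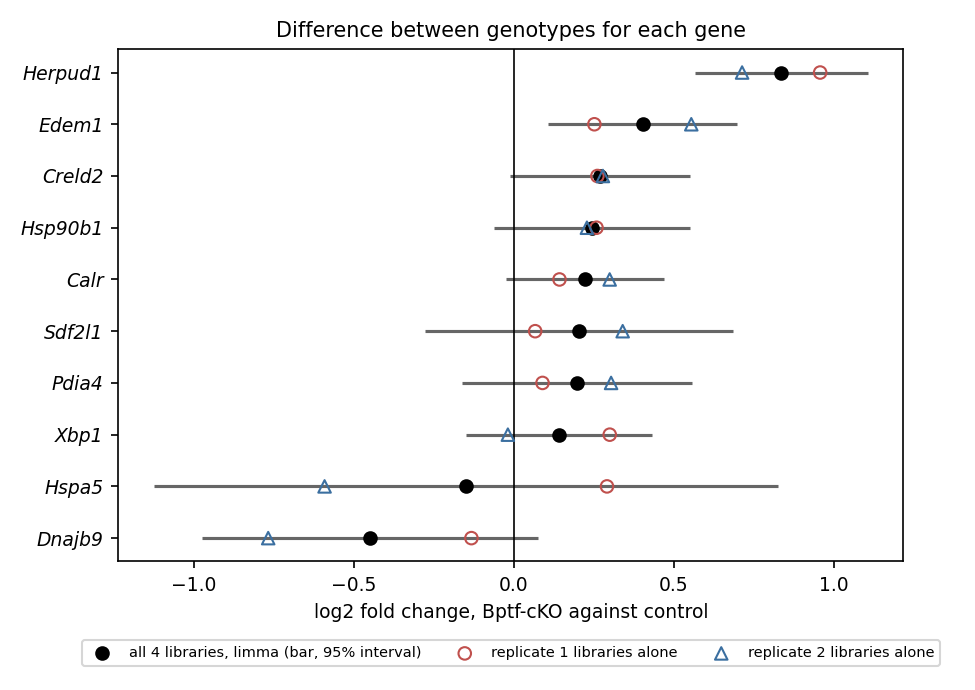
Log2 fold change of *Bptf* cKO against control for each of the 10 genes; black points with bars are the limma estimate from all 4 libraries with its 95% interval, and open circles and triangles are the difference within the replicate 1 and the replicate 2 libraries. The intervals of *Herpud1* and *Edem1* lie above 0, and *Hspa5* and *Xbp1* have their replicates on opposite sides of 0.

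Per kilobase of exon sequence, the 10 genes covered a wide range of levels in control LSK cells. *Calr* was the highest with 7656 normalized counts per kb, followed by *Hspa5* with 5208 and *Hsp90b1* with 2095, and none of these neighbors overlapped in their libraries. *Pdia4* followed with 1165 per kb. *Herpud1*, *Sdf2l1*, *Creld2* and *Xbp1* were at 832, 697, 618 and 583 per kb, and each of them overlapped with its neighbor. *Dnajb9* was at 452 and *Edem1* was lowest at 250.3 per kb. In *Bptf* cKO the order was the same at the top, *Herpud1* at 1482 per kb came beside *Pdia4* at 1343 with overlapping libraries, and *Dnajb9* at 338 overlapped with *Edem1* at 330.3 per kb.

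The rest of the ER machinery was read from lists of genes with those 10 left out. Over all tested genes, limma called 0.370% in each direction and 50.2% had a log2 fold change above 0. Of 37 other folding genes, 1 rose (*Ero1l*) and none fell by limma, 29 had a log2 fold change above 0 and 8 below, and the median was 0.21. *Ero1l*, the oxidase that drives disulfide formation by protein disulfide isomerases, rose from 716 and 729 to 1445 and 1491 normalized counts, a log2 fold change of 1.02 (SE 0.11, limma adjusted p = 0.0329). At the ends of this list, the values were 1.41 for *Clgn* and -1.64 for *Fkbp14* on the log2 scale, with limma adjusted p-values of 0.397 and 0.246, both with at most 100.1 normalized counts in any library. Of 27 other ERAD genes, 1 rose (*Sel1l*) and none fell, 21 were above 0 and 6 below, and the median was 0.13. *Sel1l*, the adaptor of HRD1 and thus a partner of *Herpud1*, rose from 2411 and 2387 to 3976 and 4382 normalized counts, by 0.80 on the log2 scale (SE 0.097, limma adjusted p = 0.0453). Of 31 genes of ER translocation and N-glycosylation, none was called by limma, 17 had an unadjusted p under 0.05 (15.7% of all tested genes) and DESeq2 called 6 of them higher (2.14% of all tested genes). In that list 25 were above 0 and 6 below, the median was 0.26, and the range ran from -0.17 (*Sec61a2*) to 0.74 (*Krtcap2*). *Krtcap2*, a subunit of the oligosaccharyltransferase, was at 1430.1 and 1489 normalized counts in the controls and at 2348 and 2544 in *Bptf* cKO (limma adjusted p = 0.0570, DESeq2 adjusted p = 1.26e-05).

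In these 3 lists together, 2 of 95 genes rose and none fell by limma, against 0.370% of all genes in each direction. DESeq2 called 10 of the 95 higher (2.14% of all tested genes). *Bptf* cKO libraries were both above both controls for 53 of the 95 (23.2% of all tested genes) and both below for 11 (23.8%), and the median log2 fold change was 0.20. With any 1 library left out, limma called none of the 95, and edgeR on all libraries called *Ero1l* alone.

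The sensors and regulators of the response included 17 listed genes, of which 16 were tested and none was called by limma. Of the 16, 3 had an unadjusted p under 0.05, a share near the 15.7% of all tested genes. DESeq2 called 2 higher (*Ern1* and *Creb3l1*, with 2.14% of all genes called higher). The log2 fold change was above 0 for 14 (50.2% of all tested genes) and below 0 for 2, and the median was 0.084. *Creb3l1*, an ATF6-like factor, had the largest log2 fold change at 2.74, from 23.3 and 11.1 to 59.1 and 216 normalized counts (limma adjusted p = 0.182), and *Nfya* had the lowest at -0.16. The 3 sensors are given as well, chosen after their values were seen. *Ern1* was at 2817 and 2306 normalized counts in the controls and at 4445 and 4244 in *Bptf* cKO (0.77 on the log2 scale, limma adjusted p = 0.0778, DESeq2 adjusted p = 1.12e-04). *Atf6* was at 1328 and 1336 against 1685 and 1892 (limma adjusted p = 0.174), and *Eif2ak3* at 640.3 and 636 against 668 and 649 (limma adjusted p = 0.909).

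Genes induced by ATF4 formed the last list. Of its 14 genes, 7 rose and none fell by limma (0.370% of all tested genes in each direction), 12 were above 0 and 2 below (50.2% of all tested genes above 0), and the median log2 fold change was 1.08. *Atf5*, a transcription factor of the same family, rose from 257 and 252 to 6339 and 6118 normalized counts, by 4.61 on the log2 scale with an adjusted p of 6.58e-04 by limma. *Trib3*, a pseudokinase that feeds back on ATF4, rose from 126 and 139 to 1833 and 1734 (limma adjusted p = 0.0034). *Asns*, asparagine synthetase, rose from 582 and 737 to 3846 and 4848 (limma adjusted p = 0.0132), and *Sesn2* and *Nupr1* rose by 2.12 and 2.35 on the log2 scale (limma adjusted p = 0.0204 and 0.0368). The lowest of the list, *Atf3*, was at 42.6 and 1021 in the controls and at 64.3 and 124 in *Bptf* cKO. Its control replicate 2 was far above the other libraries. *Hspa5* was also highest in that library but by less, at 30574 against 20291 in *Bptf* cKO replicate 2. *Atf4* itself was at 6633 and 8840 against 8852 and 9469 (limma adjusted p = 0.501). The count of 7 was 6 without control replicate 1, 5 without control replicate 2 and 1 without either *Bptf* cKO library. This list was put together with earlier results of these libraries known, so its count is no independent evidence of its direction. TTGCATCA, which the *Herpud1* promoter holds, was in 4 of the 14 promoters (*Atf3*, *Chac1*, *Nupr1* and *Vldlr*), and the ER stress element was in none of them.

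**Figure D5:**
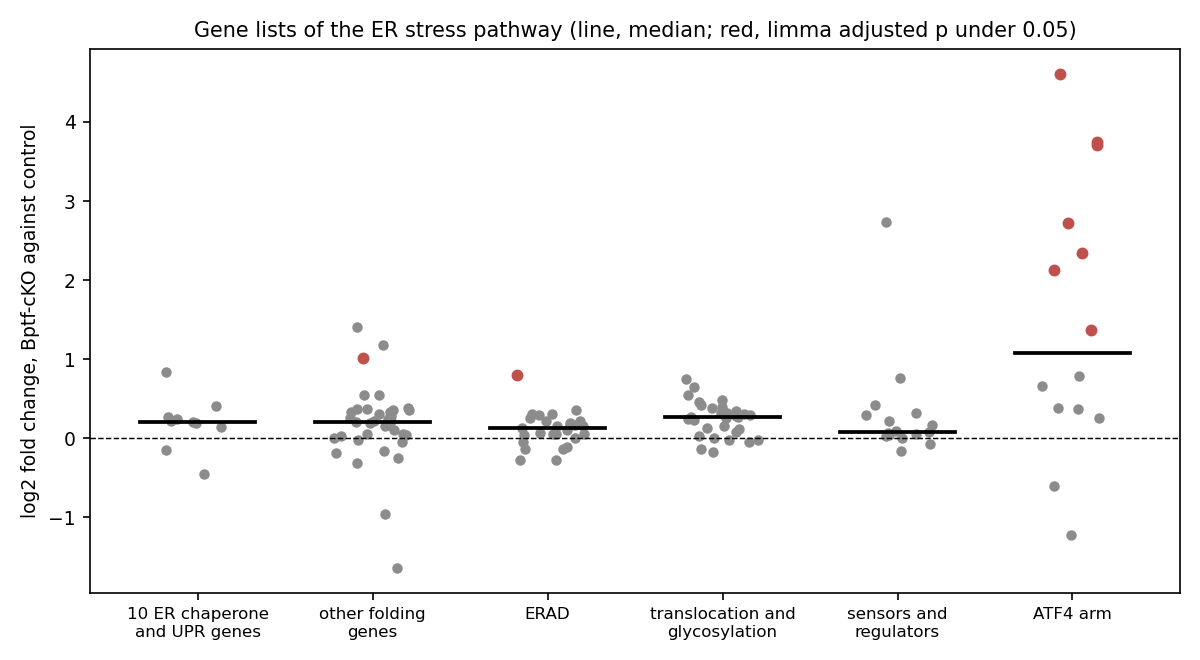
Log2 fold change of *Bptf* cKO against control for each tested gene of 6 lists; points are genes, black lines the median of a list, and red points passed a limma adjusted p of 0.05. The 10 ER chaperone and response genes and the other ER lists have medians of 0.084 to 0.26 with 2 red points among them, and the ATF4 list has a median of 1.08 with 7.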

How the data were processed

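RNA-seq of sorted LSK cells was analysed in 4 libraries, 2 *Bptf* cKO and 2 control, grouped by the sample labels. Nothing says that the pooled mice of the libraries were otherwise independent, so p-values measure the spread between these pools. The deposited values are a signal: gene counts that the authors divided by a size factor for each library. HISAT2, featureCounts, DESeq2 and the builds GRCm38 and mm10 are named in the submitters' processing notes; versions, annotation and strand setting are not given in the sources used here. Columns with the authors' own mean, fold change, error, test statistic and p-values were not used, and 0 other per-sample columns were present. Every value came out as a whole number of reads within 0.01 (100%), and listed genes had at least 11 reads over the 4 libraries. Counting error is small for the 10 genes, and the number of libraries limits precision.

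Genes whose mean reached 10 normalized counts were compared as log2(normalized count + 1) with limma 3.58.1 in R 4.3.3 (trended variance, genotype only, two-sided, Benjamini-Hochberg over 14858 genes). Fold changes are on that scale. edgeR 4.0.16 (quasi-likelihood test, TMM) and DESeq2 1.42.0 on the recovered reads, pseudocounts of 0.5 and 10, no filter, a mean of at least 50, recentring on library medians, a replicate block and leaving out each library were alternatives; the libraries of 1 replicate number alone, and all alternatives for the ATF4 list, were added after seeing the data. The fits were tested on simulated data. Levels per kb used the union of GENCODE vM21 exons. Promoters were searched with Python 3.11.15.

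The 10 genes and all lists were chosen with earlier results of these data known. All 10 are named; of each other list of the ER and ATF4 pathways, up to 5 called genes (smallest p first), the largest rise and the largest fall are named, marker lists are given as sums, and other names were chosen after their values were seen. A gene that this rule would name is not reported here.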

Additional observations from a re-analysis of the deposited data

How the results depend on the processing

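Of the 10 ER genes, 0 were called in the fit described, 2 (*Herpud1* and *Edem1*) with the replicate block in limma or in edgeR, and 1 (*Herpud1*) with a pseudocount of 10, without a filter or with DESeq2. Over all genes 110 were called, against 2138 with the replicate block, 2120 with edgeR and the replicate block, 808 with DESeq2 and 1 to 117 with 1 library left out (117 without control replicate 1, 64 without control replicate 2, 1 without either *Bptf* cKO library). For the 95 other ER genes the count was 2, and it was 25 with the replicate block, 26 with edgeR and the block, 1 with edgeR alone, 10 with DESeq2 and 0 to 0 with 1 library left out. For the sensors and regulators it was 0, and 3, 4 and 2 with the replicate block, edgeR with the block and DESeq2. No label says what a replicate number marks; deviations of same-numbered libraries correlated at 0.452 over 14858 genes, with 2 pairs. With the replicate block the limma adjusted p was 1.54e-04 for *Herpud1* and 0.0212 for *Edem1*. *Bptf* was at -0.76, at -0.71 after recentring (limma adjusted p = 0.0547), at -0.76 with edgeR (adjusted p = 0.0531), at -0.80 to -0.72 with 1 library left out, and at -0.70 and -0.82 in replicates 1 and 2 alone. Leaving out 1 library turned the sign of *Hspa5* (-0.74 to 0.44) and *Sdf2l1* (-0.030 to 0.44), each without control replicate 2; the cause was not tested. The other 8 ER genes kept their sign with 1 library left out, and between the replicate 2 libraries alone *Xbp1* was at -0.019. Depth did not limit the 10 genes, which had at least 468 reads in each library, but *Creb3l1* had as few as 8.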

Other observations

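Of the 37 genes whose promoter window held the ER stress element, 17 were tested, none was called by limma, 9 had a log2 fold change above 0 and 8 below, and the median was 0.0025; leaving out the 4 that belong to the ER genes described above, 6 of 13 were above 0. Of the 12 genes with ER stress element II, 8 were tested and 6 were above 0, with *Herpud1* the highest, and none was called. Of the 279 genes with TTGCATCA, 79 were tested, 9 rose and 1 fell by limma, 45 were above 0 and the median was 0.084. Those that rose were *Aars*, *Avil*, *Chac1*, *Jdp2*, *Nupr1*, *Pycr1*, *Slc1a4*, *Slc7a11* and *Yars*, named after their values were seen. Over the 10378 tested genes with a promoter window, 38 rose and 46 fell, and the median was -3.6e-04. These counts are descriptions of sequence matches, and no test was made on them.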
